A study of Mus musculus with 4 samples.

Results

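The secreted glycoproteins Sparc and Fstl1 were followed in MC38 cells together with 8 further matricellular and adhesive matrix glycoprotein genes, Fn1, Tnc, Thbs1, Thbs2, Postn, Fbln1, Fbln2 and Tgfbi. The 10 genes were found by symbol among the 26322 genes listed in the deposited table. They were chosen by protein family with earlier results of these libraries known, and Sparc and Fstl1 head the group because of their measured difference between CbfbKO and WT cells. That difference is therefore a description for the 10 genes. Where the fit over all genes called a member or did not, this is stated to place it among all genes and is no independent test. MC38 is a mouse colon cancer line. All cells were electroporated with Cas9 and a synthetic guide, the WT cells (sgNT) with a non-targeting guide and the CbfbKO cells (sgCbfb) with 1 guide against Cbfb, which encodes the CBFβ partner of the RUNX transcription factors. RNA was taken at least 1 week later, and 2 libraries per group were sequenced from the 3′ end of transcripts. No step that isolates clones is named in the sources used here. Cbfb mRNA fell from 295 and 285 reads in WT to 125 and 125 in CbfbKO libraries, 41.5% of the WT level (limma, adjusted p = 1.76e-07). Protein was not measured here, while the paper reports deletion of CBFβ in MC38 cells by immunoblot.

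Matricellular proteins are secreted into the extracellular matrix, where they tune how cells adhere, spread and receive growth factors rather than bearing load themselves. SPARC binds collagen and calcium, and FSTL1 shares its follistatin-like and calcium-binding modules and binds ligands of the TGF-β superfamily. Thrombospondins, tenascins, fibulins, periostin and the TGF-β-induced protein act between matrix and cell surface, and fibronectin is the adhesive scaffold that integrins and syndecans hold. In tumours these genes are best known from stromal fibroblasts, although cancer cell lines of mesenchymal character express several of them.

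The libraries held 3396192 and 3335116 reads counted on genes for WT and 3907936 and 3189035 for CbfbKO, recovered from the deposited log2 CPM (reads scaled to the library total). A 3′ library gives about 1 read per transcript captured, so levels can be compared between genes without a length term. A gene was tested where 2 or more libraries had a deposited log2 CPM of 0 or above, which left 12207 genes, with a median difference (CbfbKO minus WT) of 0.039 on the log2 scale. The ribosomal RNA gene Rn45s took between 11.3% and 13.9% of the reads, with its lowest share in CbfbKO replicate 1. Defining epithelial genes were near 0. The 8 followed, Epcam, Cdh1, Krt8, Krt18, Krt19, Cdx2, Vil1 and Cldn7, together gave between 3 and 6 reads per library. Of 8 fibroblast genes, Lum and Thy1 had no read, and Pdgfrb, Col1a1 and Col1a2 had between 0 and 16 reads per library. Pdgfra, Dcn and Col3a1 had between 91 and 386 reads per library. The summed level of the fibroblast genes was 186 and 173 CPM in WT and 136 and 145 CPM in CbfbKO libraries. Without Col3a1, the sum of the other 7 was 72.1 and 66.6 CPM in WT and 80.3 and 83.7 CPM in CbfbKO libraries. The 6 leukocyte genes summed to between 0 and 6 reads and the 4 endothelial genes to 1 or 2 reads per library. Since these are bulk libraries, more cells expressing a gene and more RNA of it per cell cannot be told apart.

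The start of each gene's promoter was examined for the RUNX core motif, because Cbfb was the gene targeted. RefSeq (GRCm38.p6) gave the 250 bases before the start for 8 of the 10 genes. The letters TGTGGT and TGCGGT were searched on both strands. A match lay in 18.6% of 32851 such windows, and 1 of the 8 genes, Fstl1, had one, which begins 163 bases before the RefSeq start. For Sparc and Fstl1 the RefSeq start lies inside the GENCODE extent of the gene given below, which begins at a start further upstream, so that the bases shown for both lie within that extent. The lines below show the Fstl1 match, in capitals, at chr16:37776880-37776909 (plus strand), the bases directly before the RefSeq start of Sparc at chr11:55420081-55420110 (minus strand), and the windows of Thbs2 at chr17:14694263-14694512 (minus strand) and of Fbln1 at chr15:85205699-85205948 (plus strand). Thbs2 is shown as the member that was lower in CbfbKO libraries and Fbln1 as a member with more reads in both CbfbKO libraries that was not called in the fit over all genes. Neither holds a match, which says only that these letters are not in that window.
Fstl1: gacggggatgccTGCGGTgcatggacgctc
Sparc: tttaggcaggagccccagaacagatgagac
Thbs2: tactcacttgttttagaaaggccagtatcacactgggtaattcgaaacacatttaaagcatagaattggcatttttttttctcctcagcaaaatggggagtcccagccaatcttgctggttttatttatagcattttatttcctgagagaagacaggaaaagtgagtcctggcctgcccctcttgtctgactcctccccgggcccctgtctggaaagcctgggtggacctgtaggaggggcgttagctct
Fbln1: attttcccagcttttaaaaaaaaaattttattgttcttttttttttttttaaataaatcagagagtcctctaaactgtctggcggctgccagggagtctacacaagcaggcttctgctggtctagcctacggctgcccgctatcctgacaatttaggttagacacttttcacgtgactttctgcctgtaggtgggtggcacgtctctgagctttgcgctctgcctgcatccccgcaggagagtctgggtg

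Sparc was by far the most abundant of the 10 genes and Fstl1 the next, and both were higher in CbfbKO cells. Thbs2 was lower, Fn1 differed little, Fbln1 and Fbln2 were higher on few reads, and Tnc, Postn and Tgfbi were at or near 0 reads. The groups did not overlap for 5 genes that were higher in both CbfbKO libraries (Sparc, Fstl1, Fn1, Fbln1 and Fbln2) and for 1 that was lower (Thbs2), against 27.4% and 16.8% of all tested genes. In the limma fit over all tested genes, at an adjusted p under 0.05, 3 members were called higher (Sparc, Fstl1 and Fbln2) and 1 lower (Thbs2). Fbln2 entered the fit only through the CbfbKO libraries, so its direction was set by the filter. The same fit called 1.57% of all tested genes higher (192) and 1.25% lower (153), a split that turned to 174 higher and 243 lower with voom and median scaling, where voom is a count-based weighting. Because the members were chosen with this contrast known, nothing is read from these shares.

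**Figure D1:**
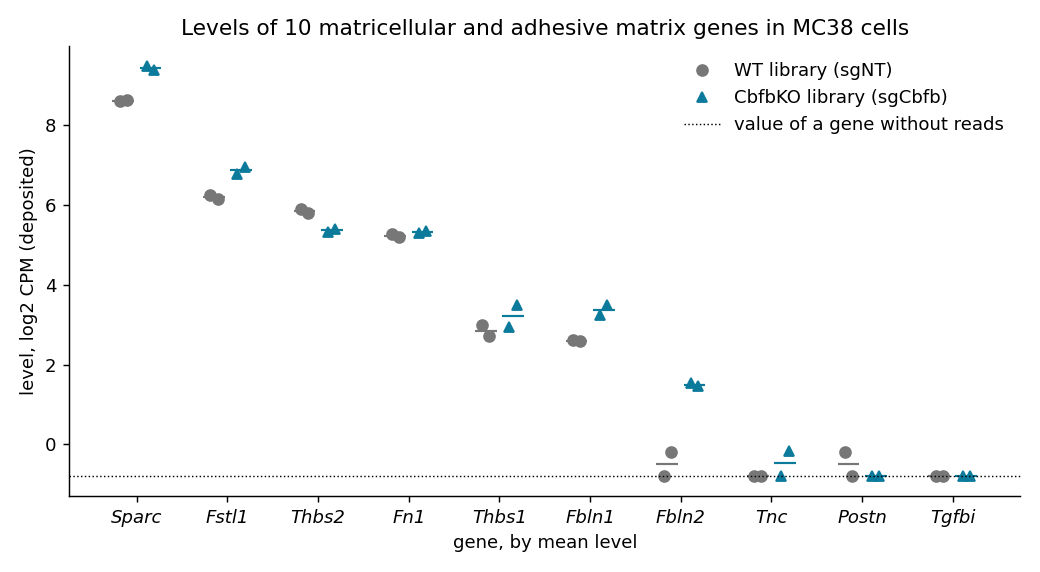
Deposited log2 CPM of the 10 genes (vertical axis) in each WT library (circles) and CbfbKO library (triangles), with short lines for the mean of 2 libraries and a dotted line for a gene without reads. Sparc lies highest in all 4 libraries, and Tnc, Postn and Tgfbi lie at or next to the dotted line.

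Sparc lies on the minus strand of chromosome 11 (55394500 to 55423183, GRCm38) and encodes the collagen-binding protein osteonectin. Its level was 387 and 396 CPM in the WT libraries and 713 and 674 CPM in the CbfbKO libraries, from 1316, 1320, 2786 and 2150 reads. Every CbfbKO library was above every WT library, by 0.77 to 0.88 on the log2 scale, while the replicates of a group were 0.031 (WT) and 0.081 (CbfbKO) apart. The mean log2 CPM was 8.62 ± 0.022 in WT and 9.44 ± 0.057 in CbfbKO cells (SD, n = 2 each), a level 1.77-fold that of WT. Ranked by reads, Sparc stood 366th and 360th of all listed genes in WT libraries and 170th and 173rd in CbfbKO libraries.

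Fstl1, on the plus strand of chromosome 16 (37776873 to 37836514), encodes the secreted follistatin-like relative of SPARC. It had 255 and 235 reads in WT and 427 and 397 in CbfbKO libraries, or 75.1 and 70.5 CPM against 109 and 124 CPM. The CbfbKO libraries again lay above both WT libraries, by 0.54 to 0.82 on the log2 scale. The means were 6.20 ± 0.064 and 6.87 ± 0.13 log2 CPM (SD, n = 2 each), a difference of 0.68 or a 1.60-fold level, and the CbfbKO replicates were 0.19 apart. In the fit over all genes Fstl1 was not called after quantile normalization, where its difference was 0.65. Reads of Sparc outnumbered those of Fstl1 5.16 and 5.62 times in WT and 6.52 and 5.42 times in CbfbKO libraries, so this ratio overlapped between the groups.

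Of the thrombospondins, Thbs2, a secreted glycoprotein that restrains angiogenesis, lies on chromosome 17 (14665500 to 14694235). Its reads went from 201 and 184 in WT to 155 and 133 in CbfbKO libraries, which is 59.2 and 55.2 against 39.7 and 41.7 CPM. Both CbfbKO libraries were below both WT libraries, with a difference of -0.48 on the log2 scale that left 71.5% of the WT level. The replicates were 0.10 and 0.071 apart. In the fit over all genes Thbs2 was not called without WT replicate 1, nor without either CbfbKO library. Thbs1, a ligand of CD47 and activator of latent TGF-β on chromosome 2 (118111876 to 118127133), had 25 and 20 reads in WT and 28 and 34 in CbfbKO libraries. Its levels of 2.99 and 2.72 log2 CPM in WT overlapped those of 2.95 and 3.49 in CbfbKO cells. The difference was 0.37 on the log2 scale, less than the 0.54 between the CbfbKO replicates. In WT cells Fstl1 had 1.27 and 1.28 reads for each read of Thbs2, and in CbfbKO cells 2.75 and 2.98.

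The fibulins, calcium-binding proteins that link fibronectin, laminins and elastic fibres, were both low. Fbln1 on chromosome 15 (85205949 to 85286535) had 19 and 18 reads in WT and 35 and 34 in CbfbKO libraries. The CPM ratio of the pooled reads was 1.77, with an exact interval at 95% of 1.17 to 2.71 that covers counting error only. The libraries of the groups did not overlap, and the gene was not called in the fit over all genes. Fbln2 on chromosome 6 (91212455 to 91272540) had 0 and 1 reads in WT and 9 and 7 in CbfbKO libraries. With 1 WT read in all, its CPM ratio of 15.2 has an exact counting interval from 2.36 to 636. The size of its difference is not determined at this depth. Since Fbln2 entered the fit only through the CbfbKO libraries, the interval is no test of its direction. The call of Fbln2 was lost when voom was run on the recovered reads, and when WT replicate 1 was left out. With either CbfbKO library left out, or at a minimum of 5 CPM, the gene failed the filter and was not tested.

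**Figure D2:**
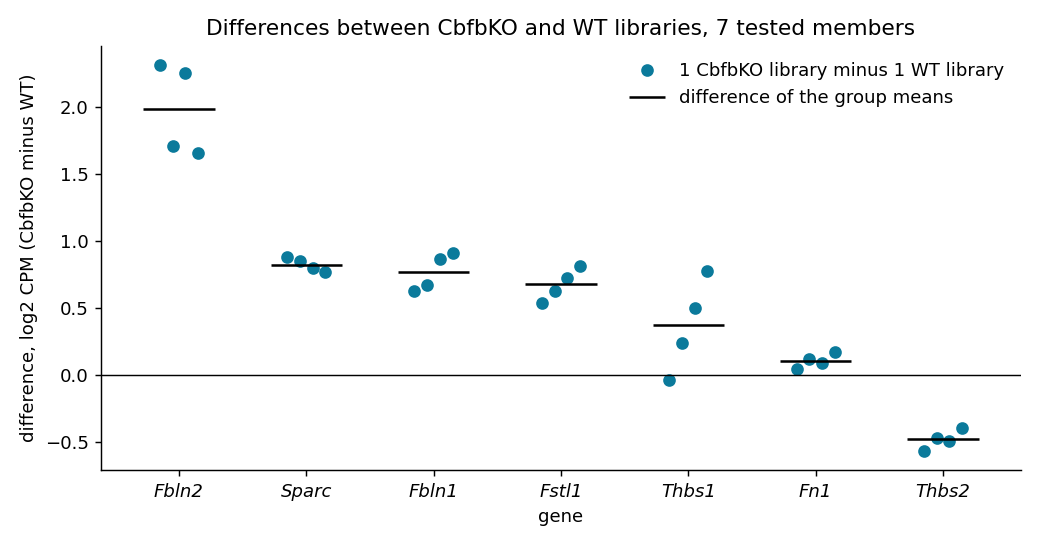
Differences in deposited log2 CPM (vertical axis, CbfbKO minus WT) for the 7 tested members, with a point for each of the 4 pairs of a CbfbKO and a WT library and a line for the difference of the means. The points of Sparc lie between 0.77 and 0.88, those of Thbs2 between -0.57 and -0.40, and those of Thbs1 fall on both sides of 0.

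Fn1 on chromosome 1 (71585520 to 71653200) encodes fibronectin, the adhesive ligand of several integrins. It had 129 and 120 reads in WT and 153 and 129 in CbfbKO libraries, or 38.0 and 36.0 against 39.2 and 40.5 CPM. Both CbfbKO libraries were higher, but the smallest gap between them and a WT library was 0.043 on the log2 scale, less than the 0.077 between the WT replicates. The mean difference was 0.10 in log2 CPM.

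For 3 members the depth allowed no comparison. Tgfbi, which encodes a fasciclin-domain adhesion protein on chromosome 13 (56609523 to 56639562), had 0 reads in all 4 libraries. Tnc (tenascin-C, chromosome 4, 63959785 to 64047015) had 1 read in CbfbKO replicate 2 and none elsewhere. Postn (periostin, chromosome 3, 54361109 to 54391037) had 1 read in WT replicate 1 and none elsewhere. A count of 0 allows up to 3 reads, which is 0.883 and 0.900 CPM in the WT and 0.768 and 0.941 CPM in the CbfbKO libraries, as far as counting error goes.

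In WT cells the order of levels was Sparc, Fstl1, Thbs2, Fn1, Thbs1 and Fbln1, and the libraries of neighbouring genes in this order did not overlap. In CbfbKO cells Sparc and Fstl1 kept their places, Thbs2 (5.33 and 5.40 log2 CPM) overlapped Fn1 (5.31 and 5.36), and Fbln1 (3.25 and 3.49) overlapped Thbs1 (2.95 and 3.49). The 10 genes together came to 573 and 569 CPM in WT and 919 and 905 CPM in CbfbKO libraries. Sparc supplied 67.6% and 69.5% of their reads in WT and 77.5% and 74.5% in CbfbKO cells. Without Sparc, the sum was 186 and 173 CPM against 207 and 230 CPM. Thbs2 went from 10.3% and 9.69% of the reads of the 10 genes to 4.31% and 4.61%.

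**Figure D3:**
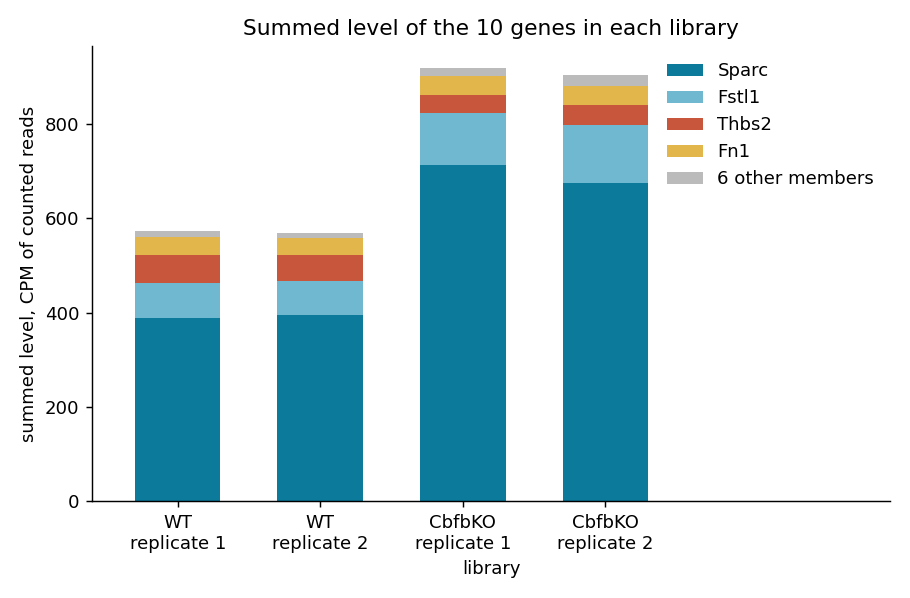
Summed level of the 10 genes in each library (vertical axis, CPM of counted reads), with Sparc, Fstl1, Thbs2, Fn1 and the 6 other members as stacked parts. The bars reach 573 and 569 CPM in WT and 919 and 905 CPM in CbfbKO libraries, and Sparc is the largest part of each.

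The genes around the members were taken as whole families, 77 genes in 5 lists, of which 39 were tested. Of these, 3 were higher and 3 lower in CbfbKO cells, against 1.57% and 1.25% of all tested genes, and 33 did not pass the threshold (limma, Benjamini-Hochberg adjustment over all tested genes). The median difference was 0.083 on the log2 scale, against 0.039 over all tested genes. The lists were chosen with this contrast known, so nothing particular to them is read from these counts. Those that passed were 5 receptor genes and osteopontin.

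Among the closest relatives of SPARC and FSTL1, 3 of 10 were tested and 0 passed in limma (1 at an unadjusted p under 0.05, and 0 with voom). Smoc1, a SPARC-related modular protein, had the highest mean level over the 4 libraries, with 75 and 70 reads in WT and 62 and 63 in CbfbKO libraries. Fstl3, an inhibitor of activins, had 57 and 51 against 89 and 58 reads, and was above Smoc1 on average in CbfbKO cells. Fst, the activin-binding follistatin, had 1 and 0 against 2 and 7 reads. It was the 1 gene at an unadjusted p under 0.05 in limma. Because it entered the fit only through the CbfbKO libraries, its direction was set by the filter. Sparcl1, Smoc2, Spock2, Fstl4 and Fstl5 had no read.

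Of 11 relatives of the thrombospondins, tenascins and fibulins, 2 were tested and 0 passed in limma (0 at an unadjusted p under 0.05, and 0 with voom). They were Efemp2, also called fibulin-4 and needed for elastic fibres, with 203 and 182 reads in WT and 214 and 186 in CbfbKO libraries, and Thbs3 with 9 and 15 against 14 and 12. The remaining 9 had at most 1 read in any library.

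The CCN proteins and osteopontin are matricellular too. Of 5 tested, Spp1 (osteopontin, a ligand of αv integrins) had 389 and 365 reads in WT and 66 and 63 in CbfbKO libraries. It fell by 2.58 in log2 CPM (limma: SE 0.13, adjusted p = 1.26e-12, where SE is the standard error of the difference), and the other 4 did not pass. The most abundant CCN gene was Ccn4, listed as Wisp1, with 591 and 602 reads in WT and 687 and 473 in CbfbKO libraries (difference -0.13, limma: SE 0.085, adjusted p = 0.505). Ccn1, listed as Cyr61, had 171 and 198 against 155 and 172 reads, and Ccn2, listed as Ctgf, at most 2 reads.

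Of 26 other matrix glycoproteins, among them laminins, nidogens and fibrillins, 16 were tested and 0 passed in limma (0 at an unadjusted p under 0.05, and 0 with voom). The laminin chain gene Lamc1 was the most abundant with 492 and 488 reads in WT and 610 and 486 in CbfbKO libraries, a difference of 0.083 in log2 CPM (SE 0.079). Its partner Lamb1 had 439 and 444 against 527 and 442 reads (difference 0.059, SE 0.083). The sum of this list was 516 and 515 CPM in WT and 541 and 542 CPM in CbfbKO libraries.

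Receptors and co-receptors of these proteins numbered 23, of which 13 were tested, 3 rose and 2 fell, beside the same 1.57% and 1.25% over all tested genes. Itga6, the α6 chain of laminin-binding integrins on chromosome 2 (71745616 to 71858416), rose from 197 and 207 reads in WT to 438 and 386 in CbfbKO libraries. The difference was 0.95 in log2 CPM (limma: SE 0.099, adjusted p = 6.51e-07). Itgav, the αv chain of integrins that bind fibronectin, osteopontin and periostin, had 133 and 116 reads in WT and 202 and 170 in CbfbKO libraries, a rise of 0.50 (limma: SE 0.13, adjusted p = 0.0313). Itgb1, the β1 chain that pairs with both, was the most abundant receptor gene with 1469 and 1427 reads in WT and 1984 and 1594 in CbfbKO libraries. Its rise was 0.23 (limma: SE 0.059, adjusted p = 0.0355). The call of Itga6 held with any library left out. That of Itgb1 was lost without any 1 of the 4 libraries, and that of Itgav without WT replicate 2 or either CbfbKO library. The call of Itgav was also lost when ribosomal RNA genes were left out of the library totals, where its difference was 0.48.

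Sdc4, the fibronectin co-receptor syndecan-4, fell by 0.49 in log2 CPM (limma: SE 0.11, adjusted p = 0.00780), with 267 and 256 reads in WT and 213 and 177 in CbfbKO libraries. Its call was lost when either CbfbKO library was left out. Itgb7, whose β7 chain pairs with α4 and αE, went from 64 and 58 reads to 41 and 19, with a difference of -1.14 (limma: SE 0.26, adjusted p = 0.0133). Without CbfbKO replicate 2 its difference was -0.75 and it was not called. The thrombospondin receptor Cd47 had 270 and 302 reads in WT and 365 and 312 in CbfbKO libraries (difference 0.17, SE 0.099), the fibronectin receptor chain Itga5 had between 7 and 10 reads, and Cd36 had none.

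**Figure D4:**
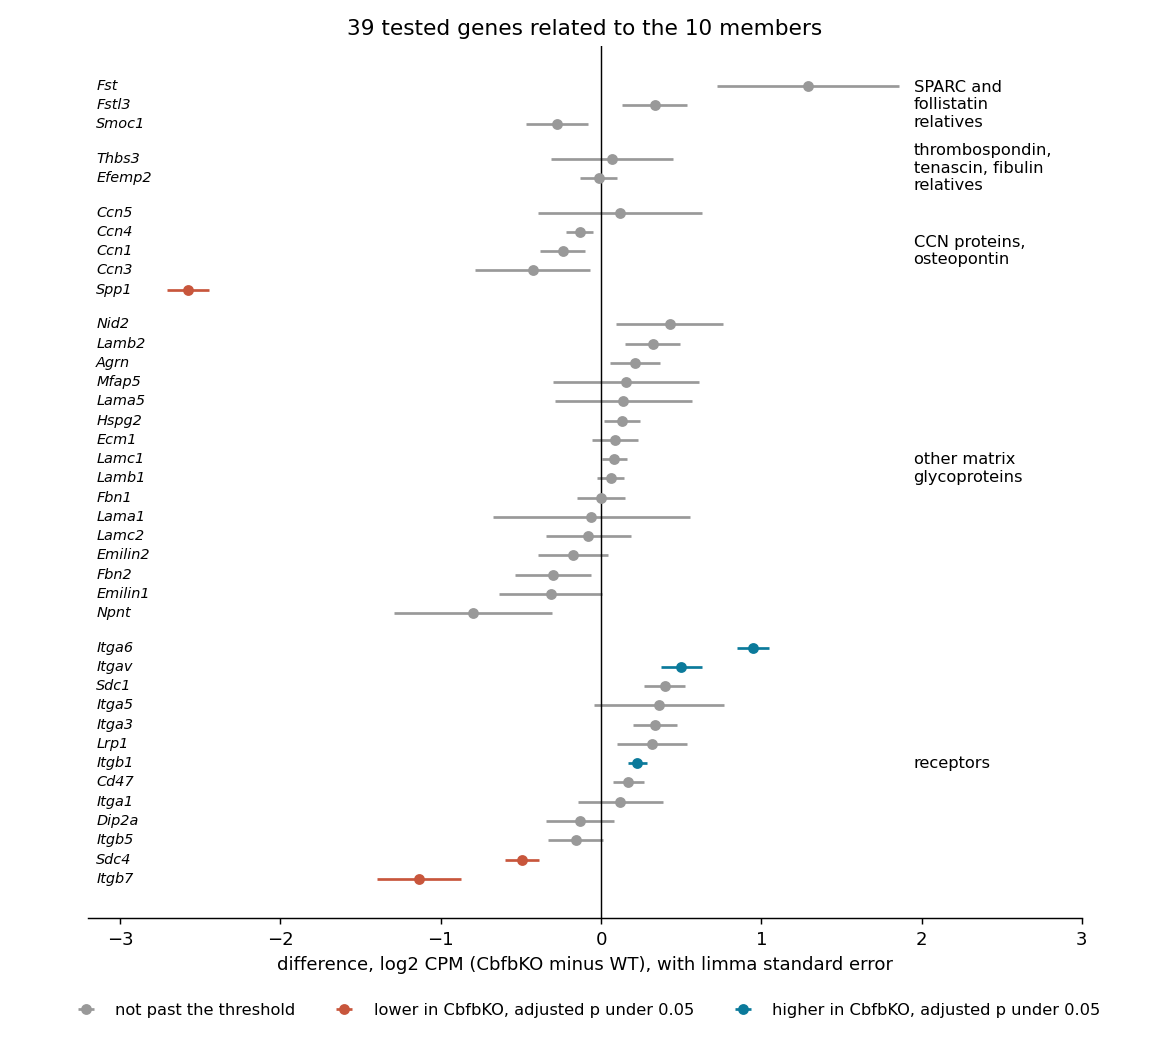
Differences in log2 CPM (horizontal axis, CbfbKO minus WT, bars are limma standard errors) for the 39 tested genes of the 5 related lists. Itga6, Itgav and Itgb1 lie to the right and Spp1, Sdc4 and Itgb7 to the left in colour, and the 33 grey genes did not pass the threshold.

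Likeness to Sparc and to Fstl1 was measured as the root mean square difference of log2 CPM, centred on each gene's mean, over the 4 libraries and among 4862 other genes with a mean log2 CPM of at least 5. The 5 genes nearest Sparc were Procr (0.045), Tuba1a (0.045), Sox4 (0.058), Rasal2 (0.087) and Tagln2 (0.089). Those nearest Fstl1 were Dclk1 (0.015), Glul (0.021), Map3k20 (0.064), Runx1 (0.075) and Pdpn (0.075). By construction, a gene with a similar group difference scores as alike on this measure. All 10 of these genes had more reads in each CbfbKO library than in either WT library.

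Fibroblast marker genes did not share 1 direction. Col3a1, a fibrillar collagen gene, fell by 0.90 in log2 CPM (limma: SE 0.10, adjusted p = 2.46e-06), while Pdgfra had 121 and 91 reads in WT and 169 and 152 in CbfbKO libraries (difference 0.53, limma: SE 0.15, adjusted p = 0.0515). Their part in the levels of Sparc and Fstl1 was not tested.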

How the data were processed

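The measurement was RNA from 2 WT and 2 CbfbKO samples in QuantSeq 3′ libraries. According to the methods and the submitters' processing notes, the authors trimmed reads with cutadapt 1.9, aligned them to mm10 with HISAT2 2.1.0 and counted them per gene with featureCounts. The authors deposited log2 CPM, scaled to library totals. The annotation, the use of strand and the tool that made the log2 values are not given in the sources used here. Apol7d and 8030451A03Rik, which overlap Fn1 and Tnc on the opposite strand, had 3 and 2 reads in all.

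The deposited log2 values step by whole reads above a floor of -0.79, given a prior count of 2, and between 99.99% and 100% of the values above the floor in each library were within 0.1 of a whole read. These reads give the depth, CPM and counting intervals. The deposited values were compared in limma 3.58.1 under R 4.3.3, with the prior variance following mean level, over genes at log2 CPM 0 or above in 2 or more libraries. Tests took either direction, with Benjamini-Hochberg adjustment at 0.05. The procedure was tested on simulated data. An exact permutation test of 2 against 2 libraries cannot go below p = 0.333. The labels do not say that replicates came from separate cultures, so p-values rest on a spread between these libraries that may be technical. For each gene, limma took that spread in part from genes of like level. The replicates differed by more than sampling noise (chi-square per degree of freedom 1.58 for WT and 2.15 for CbfbKO over 9520 genes).

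The members and the 5 related lists were chosen with earlier results of these data known. The genes named are the 10 members, Cbfb, each related gene past the threshold, the most abundant gene of each list, and the 5 genes most like Sparc and most like Fstl1. Other related and marker genes were named after their values were seen. Positions are from GENCODE M21 (GRCm38), and promoter sequences from RefSeq (GRCm38.p6). Also run were the fit over every gene, a 5 CPM minimum, median centring, quantile normalization, ribosomal RNA genes left out, no trend, voom on recovered reads, the replicate block and each library left out.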

Additional observations from a re-analysis of the deposited data

How the results depend on the processing

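Leaving aside Fbln2, whose direction the filter set, none of the other 6 tested members and of the 6 related genes past the threshold changed direction under the alternatives in which they were tested. The other related genes were not followed across the alternatives. The filters, the trend setting and the replicate block leave a difference as it is. Leaving out 1 library cannot reverse a gene whose groups do not overlap. For such genes only changes of scaling and voom could have altered a direction, so little is read from the kept directions. With quantile normalization 1 member (Sparc) was called higher and 0 lower, the calls of Fstl1, Fbln2 and Thbs2 being lost, 1 related gene higher and 1 lower, and 39 genes of all higher and 44 lower. Without the mean-variance trend limma called 0 genes, members and related genes included (1461 genes at an unadjusted p under 0.05), whereas voom on library totals called 3 members and 6 related genes. Without a low-value filter 0 members were lower and 1 related gene was higher. Voom with median scaling gave 243 lower genes, and a minimum of 5 CPM gave 300 higher genes, against 153 and 192. With each library left out, higher genes numbered 61 to 234, lower genes 86 to 161, members 2 to 3 higher and 0 to 1 lower, and related genes 1 to 2 higher and 1 to 3 lower. The replicate block gave 320 higher genes and kept the same 4 members and 6 related genes, and the pairing check found a correlation of -0.0042 between libraries of the same number (12207 genes). The causes were not tested. The pseudocount alternative was not run, since the values are already log2. Genes with under 20 reads in each WT library, Fbln1 and Fbln2 among them, carry large counting error at this depth.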
